A study of Mus musculus with 36 samples.

Results

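The response of mouse lung tumour cells to a guide against Setd2 was compared between 2 variants of the EML4-ALK oncogene. All 36 tumours of the series entered this comparison, which used the 4 sample groups given in the labels. RNA was sequenced from sorted EGFP-positive neoplastic cells. The groups were Variant 3 Setd2 and Variant 3 Neo, which are Setd2-deficient (sgSetd2) and Setd2-proficient (sgNeo) tumours driven by EML4-ALK variant 3, and Variant 1 Setd2 and Variant 1 Neo, the same pair in tumours driven by variant 1. Every tumour therefore carried an EML4-ALK fusion and a guide, and the sgNeo groups were guide controls rather than unguided tumours. Each group held 9 tumours under 3 title codes, with 3 tumours each. What a code stands for is not stated, nor are strain, age, sex or time after tumour start. Counts were summed within a code, giving n = 3 per group, so that each p-value reflects how far codes vary, which may be technical. The quantity of interest was the interaction, the log2 fold change of Setd2 over Neo in Variant 3 minus that in Variant 1. Fold changes and interactions are on the log2 scale throughout. An interaction above 0 means that the gene stood higher, relative to its Neo group, in Variant 3 Setd2 than in Variant 1 Setd2.

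Setd2 is the enzyme that trimethylates lysine 36 of histone H3 behind elongating RNA polymerase II, and it is known as a tumour suppressor in lung cancer. EML4-ALK fuses the coiled-coil part of EML4, which makes the product multimerise, to the kinase domain of ALK. The variants differ in how much of EML4 they keep, and variant 3 lacks most of its propeller-shaped part. ALK signals to the MAPK and STAT3 pathways. In the alveoli, surfactant is made by AT2 cells, which need sterol and lipid synthesis for it.

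The depth of a tumour was 17.9 M to 137.2 M counts (M for mega; median 40.65 M), with group medians of 54.7 M in Variant 3 Setd2, 39.1 M in Variant 3 Neo, 38.7 M in Variant 1 Setd2 and 26.9 M in Variant 1 Neo. The cells carried the markers of AT2 cells in every group: the mean log2(CPM + 1) over 20 AT2 genes, where CPM is the usual depth-scaled count, lay between 9.7 and 12 across tumours. Ptprc, the common leukocyte antigen, had group means of 0.499, 0.142, 0.205 and 0.908 CPM in the same order. The summed level of 6 leukocyte genes was at most 3.74 CPM in Variant 3 Setd2, 1.91 in Variant 3 Neo, 2.59 in Variant 1 Setd2 and 19.7 in Variant 1 Neo tumours. The sums of macrophage, of erythroid and platelet, of fibroblast and of mesothelial markers were higher. Fibroblast sums had medians of 670.8, 461.9, 337.1 and 214.1 CPM in Variant 3 Setd2, Variant 3 Neo, Variant 1 Setd2 and Variant 1 Neo tumours. Those of the 2 mesothelial genes tested were 246.7, 229.2, 218.2 and 179.2 CPM in the same order. Of 15 macrophage genes 11 were tested, with sums of 271.6 to 409.5 CPM (median 359.5) in Variant 3 Setd2 and 190.2 to 308.8 (222.5) in Variant 3 Neo tumours. They summed to 267.2 to 411.6 CPM (356.8) in Variant 1 Setd2 and 135.8 to 392.9 (279.9) in Variant 1 Neo tumours. Most of this was Cd14, at group means of 314, 217, 338 and 222 CPM in the same order, while C1qa, C1qb and C1qc were at 0.137 CPM or less in every group. None of the 11 passed in either variant. Erythroid and platelet markers had lower median sums in Setd2: 16.4 against 75.6 CPM in Variant 3 and 22.8 against 86.8 CPM in Variant 1. Of 10 such genes 6 were tested, and 1, Pf4, passed in each variant, lower in Setd2. In Variant 3, 2 of the 6 lay above 0, with a median log2 fold change of -4.39. In Variant 1, 4 did, with a median of 1.16. The highest sum of these markers was 1415 CPM in a Variant 3 Neo tumour. The 12 fibroblast genes had median fold changes of 2.10 in Variant 3 and -1.08 in Variant 1, and 0 passed in either. All 6 leukocyte genes had interactions above 0, with a median of 4.83, and 0 passed. Neutrophil markers stood higher in Setd2 in both variants, and their values are given with the resistin-like genes. What part these cells have in the results was not tested. By Ddx3y, a Y-linked gene, 1 code of Variant 3 Setd2 (CE450), 2 of Variant 3 Neo (CE429 and CE433), 1 of Variant 1 Setd2 (CE475) and 0 of Variant 1 Neo were male. Sex was thus unbalanced across the interaction.

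The targeted gene was examined first. Setd2 (chromosome 9, 110532597 to 110618633; all gene positions are on GRCm38) had 33.6, 43.8 and 59.8 CPM in the Variant 3 Setd2 codes and 52.9, 65.7 and 45.2 CPM in the Variant 3 Neo codes. It had 39, 38.7 and 34.5 CPM in the Variant 1 Setd2 codes and 71, 53.5 and 78.5 CPM in the Variant 1 Neo codes. The codes overlapped in Variant 3 and did not in Variant 1. Among single tumours, CE456 tumour 10, labelled Variant 3 Setd2, had 81.7 CPM, above all 9 Variant 3 Neo tumours, of which the highest had 68.8 CPM. Without this tumour, 0 genes passed for the interaction and 320 passed in Variant 3, in place of 299. Over all tumours, the interaction of Setd2 was 0.60 (95% interval -0.07 to 1.27, edgeR quasi-likelihood adjusted p = 0.834), so these codes did not resolve a difference between the variants in the Setd2 transcript. A guide can disable a gene without removing its transcript, and the protein was not measured. Setd2 also overlaps the annotated gene Gm42763.

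No gene passed for the interaction. Of 20009 genes tested, 0 (0%) had an adjusted p under 0.05 in edgeR's quasi-likelihood test, and the smallest was 0.0982, for Cfap52. At an unadjusted p under 0.05 there were 1200 genes (6.0%), of which 693 (3.46% of those tested) lay above 0 and 507 (2.53%) below 0. DESeq2 on the same sums called 114 genes for the interaction and limma voom on tumours with codes as random blocks called 2. At this threshold large estimates could still miss. Pygl had an interaction of 3.44 (adjusted p = 0.497, edgeR) and Slco3a1 one of -3.30 (adjusted p = 0.385, edgeR). The intervals of single genes, before adjustment, were narrower. Over the 10249 genes with a mean of at least 5 CPM, the median half-width of the 95% interval of the interaction was 0.61 on the log2 scale, or 1.53-fold, and 8794 of these genes (85.8%) had a half-width under 1. In Variant 3 itself, 176 genes (0.88% of those tested) were higher in Setd2 than in Neo and 123 (0.615%) were lower. In Variant 1, 140 genes (0.7%) were higher and 144 (0.72%) were lower.

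The lists of genes called in each variant overlapped in 101 genes, which is 33.8% of the Variant 3 list and 35.6% of the Variant 1 list. All 101 had the same sign in both variants, and 60 of them were higher in Setd2. The variants share no tumour, so their fold changes are separate measurements. Of the 299 genes called in Variant 3, 286 (95.7%) had the same sign in Variant 1, and of the 284 called in Variant 1, 272 (95.8%) had the same sign in Variant 3, against 64.1% of all genes tested. Across the 10249 genes of at least 5 CPM, the fold changes of the variants correlated with Pearson's r = 0.57 and Spearman's rho = 0.54. This is a correlation across genes, which are not independent replicates. The 198 genes called in Variant 3 only had a median log2 fold change, signed by the call, of 1.40 in Variant 3 and 0.63 in Variant 1. The 183 genes called in Variant 1 only had medians of 0.59 in Variant 3 and 1.45 in Variant 1. A gene's call in 1 variant therefore seldom came with a fold change of the other sign, and a gene is selected for a large value in the variant that called it.

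**Figure D1:**
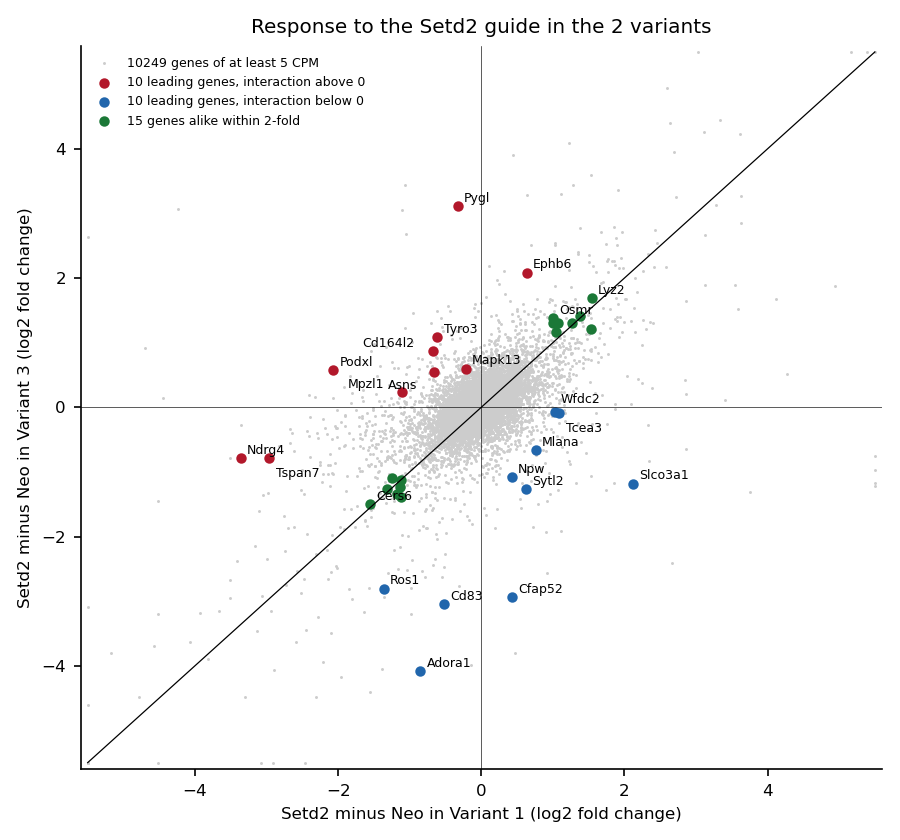
Each point is a gene; the vertical axis gives its log2 fold change of Setd2 over Neo in Variant 3 and the horizontal axis that in Variant 1. Grey points are the 10249 genes of at least 5 CPM, coloured points the genes named by smallest interaction p or as alike, the diagonal marks equal responses, and 18 genes beyond 5.5 on either axis are drawn at the edge.

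A missed p does not show likeness, so likeness was read from the interval. A gene was called alike within 2-fold when it passed for the average of both variants and the 95% interval of its interaction lay inside -1 to 1. Averaged over the variants, 745 genes (3.72% of those tested) were higher in Setd2 and 726 (3.63%) were lower. Of these 1471 genes, 633 (43.0%, which is 3.16% of those tested) were alike within 2-fold, 319 higher and 314 lower. Over all genes tested, called or not, the interval lay inside these bounds for 6714 (33.6%). Among the 633 genes, 36 changed at least 2-fold on average. An unadjusted interaction p under 0.05 was found for 223 (15.2%) of the 1471 genes.

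The alike genes with the largest average changes include the secreted defence proteins Lyz2, the lysozyme of macrophages and AT2 cells, and Chil1, a chitinase-like protein. Lyz2 had 16782, 17384 and 11216 CPM in the Variant 3 Setd2 codes, against 5273, 3505 and 5268 CPM in the Variant 3 Neo codes. In Variant 1 it had 19275, 15958 and 29871 CPM in the Setd2 codes, against 7118, 6581 and 8618 CPM in the Neo codes. The Setd2 codes lay above the Neo codes in both variants, with log2 fold changes of 1.69 in Variant 3 and 1.54 in Variant 1 and an interaction of 0.15 (-0.68 to 0.98). Chil1 rose by 1.17 in Variant 3 and by 1.05 in Variant 1, with an interaction of 0.13 (-0.46 to 0.71). Lower alike genes include Cers6, a ceramide synthase. It had 23.3, 27 and 21.4 CPM in Variant 3 Setd2 and 70.3, 68.5 and 63.1 CPM in Variant 3 Neo codes, and 28.2, 23 and 11 CPM in Variant 1 Setd2 and 60, 60.7 and 61.5 CPM in Variant 1 Neo codes. Its fold changes were -1.50 and -1.55, and its interaction was 0.06 (-0.74 to 0.85). Nudt19, Mctp1, Ptpra (a receptor tyrosine phosphatase) and Ckmt1 (mitochondrial creatine kinase) also fell in both variants, between -1.40 and -1.10 in Variant 3 and -1.31 and -1.13 in Variant 1. Irx2, an Iroquois homeobox factor of the lung, rose by 1.30 in Variant 3 and 1.0 in Variant 1. The other alike genes named by the rule were Prrg3, Tmem30b and Pdzk1ip1, which were higher in Setd2 on average over the variants, and Zfp821 and Prim2, which were lower, together with Cp and Osmr below. Like Setd2, the genes Cers6, Mctp1, Ptpra, Prim2, Ckmt1 and Nudt19 overlap other annotated genes. So do Cp (with Hps3), Pygl, Tspan7, Mpzl1, Slco3a1, Ros1 and Cd164l2 below. Reads cannot be assigned between overlapping genes without strand, and strand does not separate genes on the same strand.

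Of 20 genes of the interleukin-6 and STAT3 axis, 3 were alike within 2-fold, against 3.16% of all genes tested: Socs3, Osmr and Il4ra. Cytokines of this family act through receptors such as Osmr, the oncostatin M receptor, and STAT3 then induces Socs3, which feeds back on the receptors, and acute-phase proteins. Socs3 had 401, 480.0 and 488 CPM in Variant 3 Setd2, against 201, 228 and 217 CPM in Variant 3 Neo codes. It had 479.9, 468 and 487 CPM in Variant 1 Setd2, against 283, 309.9 and 299 CPM in Variant 1 Neo codes. No code overlapped between the guides in either variant. Socs3 rose by 1.09 in Variant 3 (adjusted p = 0.00178, edgeR) and by 0.69 in Variant 1 (adjusted p = 0.0195, edgeR). Its interaction of 0.40 (0.05 to 0.75) had an unadjusted p of 0.0272, so that a gene alike within 2-fold still had the larger estimate in Variant 3. Osmr rose by 1.38 and 1.01 (interaction 0.37, -0.21 to 0.95). Il4ra, the interleukin-4 receptor alpha chain, rose by 1.01 in Variant 3 and stood 0.93 higher in Variant 1, where its adjusted p was 0.059 (edgeR), and it was alike within 2-fold. Over the whole list, 3 rose in Variant 3 and 2 in Variant 1, against 0.88% and 0.7% of all genes tested. The median interaction of the list was 0.11, beside 0.04 over all genes tested.

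Of 15 acute-phase genes tested, 4 rose in Variant 3 and 5 in Variant 1, with median log2 fold changes of 1.20 and 0.98. Of all genes tested, 0.88% rose in Variant 3 and 0.7% in Variant 1. No interaction passed, and 3 genes of the list were alike within 2-fold, against 3.16% of all genes tested. Steap4, a metalloreductase, had 163, 111 and 168 CPM in Variant 3 Setd2 and 9.14, 6.85 and 7.11 CPM in Variant 3 Neo codes. In Variant 1 it had 74.2, 80.7 and 153 CPM in Setd2 and 10.2, 15 and 10.2 CPM in Neo codes. It rose by 4.26 in Variant 3 and 3.12 in Variant 1, with an interaction of 1.14 (0.27 to 2.01, unadjusted p = 0.0145, adjusted p = 0.714, edgeR). The fibrinogen chain genes Fga and Fgg, whose products form the clot protein, rose by 4.45 and 4.40 in Variant 3, and by 3.34 and 2.63 in Variant 1. Their interactions were 1.11 (-0.18 to 2.41) and 1.77 (0.35 to 3.19). Ceruloplasmin (Cp), the copper carrier of plasma, was alike, with fold changes of 1.20 and 1.54 and an interaction of -0.33 (-0.97 to 0.31). Haptoglobin (Hp), which binds free haemoglobin, rose in Variant 1 and did not pass in Variant 3. It had 279, 404 and 327 CPM in Variant 3 Setd2 and 323, 419.6 and 332 CPM in Variant 3 Neo codes, which overlapped. It had 523, 716 and 759.7 CPM in Variant 1 Setd2 and 349, 359 and 219.9 CPM in Variant 1 Neo codes, which did not. Its interaction was -1.20 (-1.88 to -0.51, unadjusted p = 0.00258). A2m, alpha-2-macroglobulin, had an interaction of 7.31, but 1 Variant 1 Neo code, CE467, held 274 CPM while the other 2 held 1.06 and 3.84.

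The promoters of Steap4 and Socs3 are shown because both genes rose in each variant and STAT3 is a known inducer of Socs3 in mouse cells. They are RefSeq windows of GRCm38.p6, from 250 bases before to 50 after the gene start, on the strand of the gene, at chr5:7960222-7960521 (plus) and chr11:117969317-117969616 (minus). Capitals mark each match to TTCNNNGAA, the spaced palindrome bound by STAT dimers, which reads the same on both strands.
Steap4: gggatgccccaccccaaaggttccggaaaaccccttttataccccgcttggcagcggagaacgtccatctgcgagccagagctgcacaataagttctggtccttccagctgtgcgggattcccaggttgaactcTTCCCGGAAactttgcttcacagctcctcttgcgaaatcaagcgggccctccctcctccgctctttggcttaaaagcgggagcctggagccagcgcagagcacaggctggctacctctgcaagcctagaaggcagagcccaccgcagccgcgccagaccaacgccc
Socs3: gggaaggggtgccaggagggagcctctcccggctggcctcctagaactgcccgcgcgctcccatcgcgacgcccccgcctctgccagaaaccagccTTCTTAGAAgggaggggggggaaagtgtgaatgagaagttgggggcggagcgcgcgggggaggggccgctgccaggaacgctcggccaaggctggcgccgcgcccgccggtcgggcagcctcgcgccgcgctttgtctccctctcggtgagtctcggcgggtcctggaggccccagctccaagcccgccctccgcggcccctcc
Each window held 1 match. The letters occurred in 6 of 15 acute-phase promoters (40.0%) and in 2 of 19 promoters of the interleukin-6 list (10.5%), against 2288 of 27025 promoters in the table (8.47%). A match is a description of letters and not a measured site.

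Of 19 genes of MHC class I, the route by which cells display peptides to T cells, 4 rose in Variant 3 and 6 in Variant 1, and 0 fell. Of all genes tested, 0.88% rose in Variant 3 and 0.7% in Variant 1. With sex as a covariate 1 of the 19 rose in Variant 3 and 5 in Variant 1, and with limma on the median of a code's tumours 6 and 0 did. The median log2 fold changes were 0.69 and 0.72, the median interaction was -0.13, and 0 genes had an unadjusted interaction p under 0.05. H2-K1, a classical heavy chain, had 1829, 2303 and 2238 CPM in Variant 3 Setd2, against 1048, 1304 and 752 CPM in Variant 3 Neo codes. It had 1766, 2016 and 1944 CPM in Variant 1 Setd2, against 899, 714 and 961 CPM in Variant 1 Neo codes. The guides did not overlap in either variant. H2-K1 rose by 1.04 and 1.15 and H2-D1 by 0.99 and 1.13, with interactions of -0.12 (-0.73 to 0.50) and -0.14 (-0.64 to 0.36). B2m, the light chain shared by all class I molecules, stood 1.20 higher in Variant 3 Setd2 (adjusted p = 0.0521, edgeR) and rose by 1.55 in Variant 1 (adjusted p = 0.0245, edgeR). Its interval, -1.17 to 0.45, reached beyond the bound. The 4 list members H2-K1, H2-D1, H2-T22 and Psmb8 met the criterion of likeness, as did 3.16% of all genes tested. H2-Q6 and H2-Q7 are near-identical copies whose reads may be split between them. The calls of this list depended on single codes and tumours. Without CE428, CE433 or CE428 tumour 2 0 genes passed in Variant 3, without CE475, CE483 or CE468 0 passed in Variant 1, and without CE467 tumour 1, CE472 tumour 2 or CE433 tumour 3 0 passed in either. The median interaction ranged from -0.28 without CE433 to 0.05 without CE429 tumour 2.

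Interferon response genes had similar medians in the variants and few calls. Of 28 tested, 25 lay above 0 in Variant 3 and 26 in Variant 1, with medians of 0.80 and 1.00, and 1 rose in each variant. Over all 20009 genes tested, 10378 and 9909 lay above 0, and 0.88% and 0.7% rose. The list's mean log2(CPM + 1) was 3.20, 3.42 and, in CE456, 4.45 in Variant 3 Setd2 and 2.96, 3.71 and 2.52 in Variant 3 Neo codes, which overlapped. In Variant 1 it was 3.70, 3.82 and 3.34 in Setd2 and 3.02, 2.54 and 2.71 in Neo codes, which did not. Averaged over the variants 8 of the 28 genes rose, and 3 were alike. Of all genes tested, 3.72% rose on average and 3.16% were alike. Irf7, the factor that amplifies the interferon response, stood 1.52 higher in Variant 3 Setd2 (adjusted p = 0.0833, edgeR) and rose by 1.80 in Variant 1. Its interaction was -0.29 (-1.46 to 0.88). Ribosomal protein genes had estimates in the other direction. Of 25 tested, all 25 lay below 0 in each variant, with medians of -0.32 in Variant 3 and -0.35 in Variant 1 and a median interaction of 0.01. Averaged over the variants 8 fell, against 3.63% of all genes tested, and all 8 were alike within 2-fold.

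**Figure D2:**
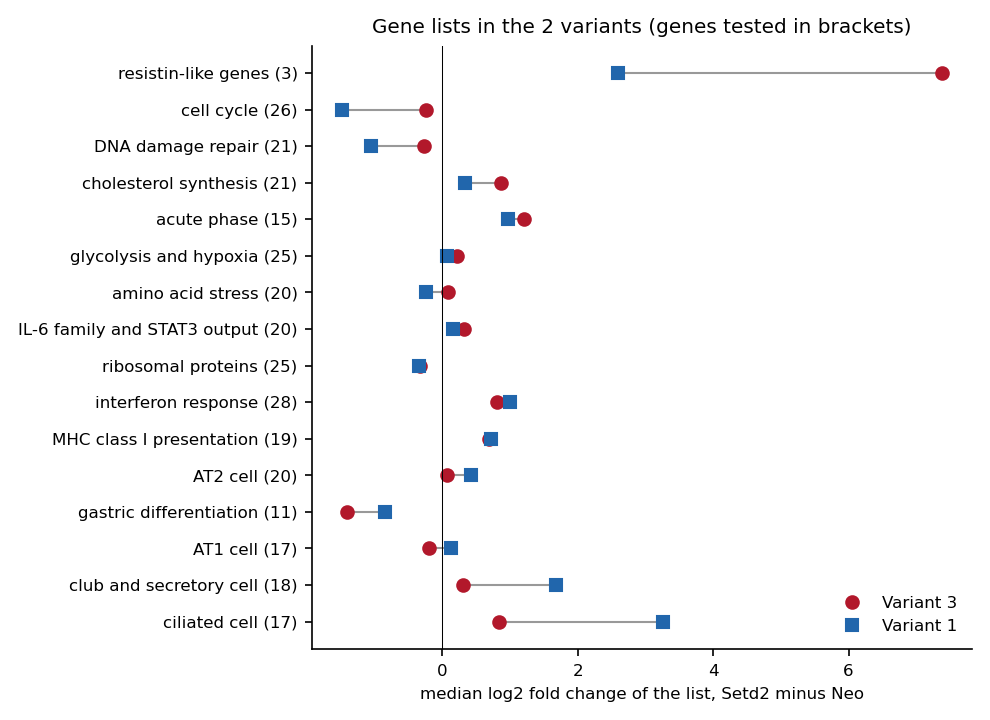
Each row is a gene list with the number of genes tested in brackets; the horizontal axis is the median log2 fold change of Setd2 over Neo, with circles for Variant 3 and squares for Variant 1. The MHC class I, interferon and ribosomal lists have nearly equal medians, while the cell cycle list stands at -0.23 in Variant 3 and -1.48 in Variant 1, and the cholesterol list at 0.86 and 0.34.

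Of 21 cholesterol synthesis genes tested, 6 rose in Variant 3 and 1, Msmo1, in Variant 1, and 0 fell in either. Of all genes tested, 0.88% rose in Variant 3 and 0.7% in Variant 1. The pathway turns acetyl-CoA into squalene and then, through Sqle and Lss, into sterols, and its genes are induced together by SREBP2 when cell sterol is low. In Variant 3, DESeq2 called 13 of the 21 and limma voom 12. The median log2 fold change was 0.86 in Variant 3 and 0.34 in Variant 1, beside 0.02 and -0.01 over all genes tested. The interaction lay above 0 for 20 of 21 genes, against 10669 of 20009 genes tested, with a median of 0.55, and 8 had an unadjusted p under 0.05. These 8 lay above 0, as did 3.46% of all genes tested at that p. No single gene passed after adjustment over all genes, and the lowest adjusted p in the list was 0.548 (edgeR). Between 18 and 21 genes lay above 0 in each of the fits that left out a code or a tumour, but the number called in Variant 3 fell to 2 without CE428 and reached 8 without CE456.

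Sqle (chromosome 15, 59315077 to 59331192), squalene epoxidase, had 135, 146 and 88.8 CPM in the Variant 3 Setd2 codes, against 39.1, 41.3 and 41.7 CPM in the Variant 3 Neo codes. It had 89.1, 80.4 and 102 CPM in the Variant 1 Setd2 codes, against 54.4, 63 and 62.8 CPM in the Variant 1 Neo codes. The guides did not overlap in either variant, and the gap was wider in Variant 3: 1.60 (adjusted p = 0.00187, edgeR) against 0.59 in Variant 1 (adjusted p = 0.116, edgeR). The interaction was 1.01 (SE 0.24, 0.48 to 1.53, unadjusted p = 0.00136). Lss, lanosterol synthase, had 64.4, 71.7 and 46.1 CPM in Variant 3 Setd2 and 27.2, 30.5 and 19.8 CPM in Variant 3 Neo codes, and 43.1, 38 and 50 CPM in Variant 1 Setd2 and 31.5, 39.9 and 39.8 CPM in Variant 1 Neo codes. The guides were apart in Variant 3 and overlapped in Variant 1, with an interaction of 1.00 (0.37 to 1.62). Idi1, which isomerises isopentenyl diphosphate, had 46.9, 54.8 and 31.3 CPM in Variant 3 Setd2, against 18.2, 19.8 and 20.1 CPM in Variant 3 Neo codes. Its Variant 1 codes had 36.8, 34.3 and 39.3 CPM in Setd2 and 26.2, 24.2 and 24.9 CPM in Neo, and its interaction was 0.64 (0.10 to 1.18). Cyp51 and Fdft1 also rose in Variant 3, by 1.08 and 0.85, and stood 0.40 and 0.31 higher in Variant 1. Msmo1, a sterol demethylase, rose by 1.18 in Variant 3 and 0.71 in Variant 1 and was alike within 2-fold. Hmgcs1, which makes HMG-CoA at the head of the pathway, was the other alike gene, with estimates of 0.93 and 0.89 (interval of the interaction -0.69 to 0.77). Ebp, a sterol isomerase, had a fold change of 0.08 in Variant 3, where the guides overlapped, and -0.60 in Variant 1, where they did not (adjusted p = 0.0556, edgeR).

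The promoters of Lss and Idi1 are shown because their interactions lay above 0 and the CCAAT box is where NF-Y works beside SREBP on sterol genes. They are RefSeq windows of GRCm38.p6 in the same frame, both on the plus strand, at chr10:76531355-76531654 and chr13:8885356-8885655. Capitals mark CCAAT or, on the other strand, ATTGG.
Lss: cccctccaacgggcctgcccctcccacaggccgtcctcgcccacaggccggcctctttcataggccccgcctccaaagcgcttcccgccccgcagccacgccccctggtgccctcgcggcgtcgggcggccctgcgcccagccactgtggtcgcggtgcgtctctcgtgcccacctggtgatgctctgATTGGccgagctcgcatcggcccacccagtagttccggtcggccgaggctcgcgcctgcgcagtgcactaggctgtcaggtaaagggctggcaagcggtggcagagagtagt
Idi1: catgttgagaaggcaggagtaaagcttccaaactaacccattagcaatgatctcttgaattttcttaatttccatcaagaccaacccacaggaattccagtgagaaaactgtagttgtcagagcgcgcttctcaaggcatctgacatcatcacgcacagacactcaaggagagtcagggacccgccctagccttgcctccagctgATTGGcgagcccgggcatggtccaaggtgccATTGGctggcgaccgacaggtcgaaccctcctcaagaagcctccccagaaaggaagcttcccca
Lss held 1 box and Idi1 held 2. The letters occurred in 14 of 16 cholesterol synthesis promoters in the table (87.5%), against 10248 of 27025 promoters in all (37.9%).

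**Figure D3:**
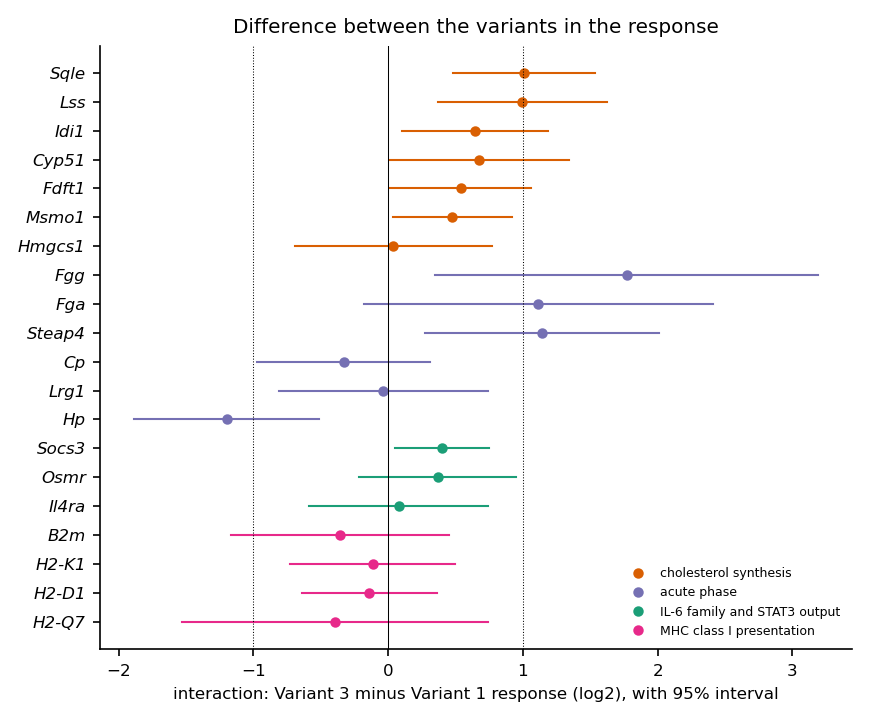
For 20 genes of 4 lists, points give the interaction (Variant 3 response minus Variant 1 response, log2) and lines its 95% interval, with dotted lines at -1 and 1. Intervals of Sqle, Lss, Idi1, Cyp51, Fdft1, Msmo1, Fgg, Steap4 and Socs3 lie above 0, that of Hp lies below 0, and those of the MHC class I genes cross 0.

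Of 26 cell cycle genes tested, 4 fell in Variant 1 (Bub1, Ccna2, Cdk1 and Aurkb) and 0 passed in Variant 3. The count in Variant 1 was 19 with DESeq2, 1 with sex as a covariate, and 0 with limma voom or with limma on the mean of a code's tumours. All 26 lay below 0 in Variant 1, 17 in Variant 3, and the interaction was above 0 for all 26, with a median of 1.23 and 12 at an unadjusted p under 0.05. Over all genes tested, 10669 of 20009 interactions lay above 0, and 3.46% did so at an unadjusted p under 0.05. In Variant 1, 0.72% of all genes fell. Ccna2 (chromosome 3, 36564865 to 36572150; it overlaps Exosc9), the cyclin A of S phase and G2, had 16.3, 5.21 and 8.29 CPM in Variant 3 Setd2 and 11.7, 8.01 and 13.5 CPM in Variant 3 Neo codes. It had 3.42, 4.5 and 2.67 CPM in Variant 1 Setd2 and 20.4, 15.9 and 19.5 CPM in Variant 1 Neo codes. The groups overlapped in Variant 3 and lay apart in Variant 1, with fold changes of -0.16 and -2.40 and an interaction of 2.24 (1.08 to 3.40, unadjusted p = 0.00127, adjusted p = 0.548, edgeR). Bub1, a kinase of the spindle checkpoint, had 8.61, 3.52 and 10.2 CPM in Variant 3 Setd2 and 9.43, 3.44 and 6.72 CPM in Variant 3 Neo codes. It had 3.56, 4.49 and 3.64 CPM in Variant 1 Setd2 and 18.2, 26.4 and 17.2 CPM in Variant 1 Neo codes, and its interaction was 2.59 (1.31 to 3.88).

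The tumours within a code differed widely. The mean log2(CPM + 1) over the list had a lowest, median and highest value of 2.94, 3.61 and 4.61 in Variant 3 Setd2 tumours and 2.70, 3.63 and 4.95 in Variant 3 Neo tumours. It had 2.41, 3.13 and 3.44 in Variant 1 Setd2 tumours and 2.19, 3.78 and 5.20 in Variant 1 Neo tumours. Variant 1 Setd2 tumours were narrow and low, and Variant 1 Neo tumours were wide, so that the ranges overlapped. The 3 highest Variant 1 Neo tumours, 5.20 in CE472 tumour 2, 5.12 in CE467 tumour 1 and 4.68 in CE468 tumour 1, belonged to a code each. Without any 1 of the codes CE475, CE483 and CE472, or of CE433 tumour 3, CE467 tumour 1, CE468 tumour 1 and CE472 tumour 2, 0 cell cycle genes passed in Variant 1. Without CE472 tumour 2 the list had 2 genes at an unadjusted interaction p under 0.05, and without CE428 tumour 2 it had 21. With the median tumour of each code in place of the sum, limma called 0 cell cycle genes in Variant 1 and the median interaction was 0.43. With the mean log2-CPM per code it was 0.69. CE467 tumour 1 also had the highest Col1a1, a fibroblast collagen, at 105.3 CPM. Without it and the 3 other tumours of Col1a1 over 10 CPM, the fit gave a median interaction of 0.86 and 1 cell cycle gene called in Variant 1.

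DNA damage repair genes, many of which are expressed in S phase, ran beside them. Of 21 tested, 3 fell in Variant 1, Lig1 and Blm among them, and 0 in Variant 3, and all 21 interactions lay above 0, with a median of 0.69 and 5 at an unadjusted p under 0.05. The shares over all genes tested are those given with the cell cycle list. Lig1, the ligase of lagging strands, had a fold change of -0.91 in Variant 3 and -1.49 in Variant 1, with an interaction of 0.58 (-0.07 to 1.24). Without the tumours of Col1a1 above 10 CPM 0 of these genes passed in Variant 1.

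**Figure D4:**
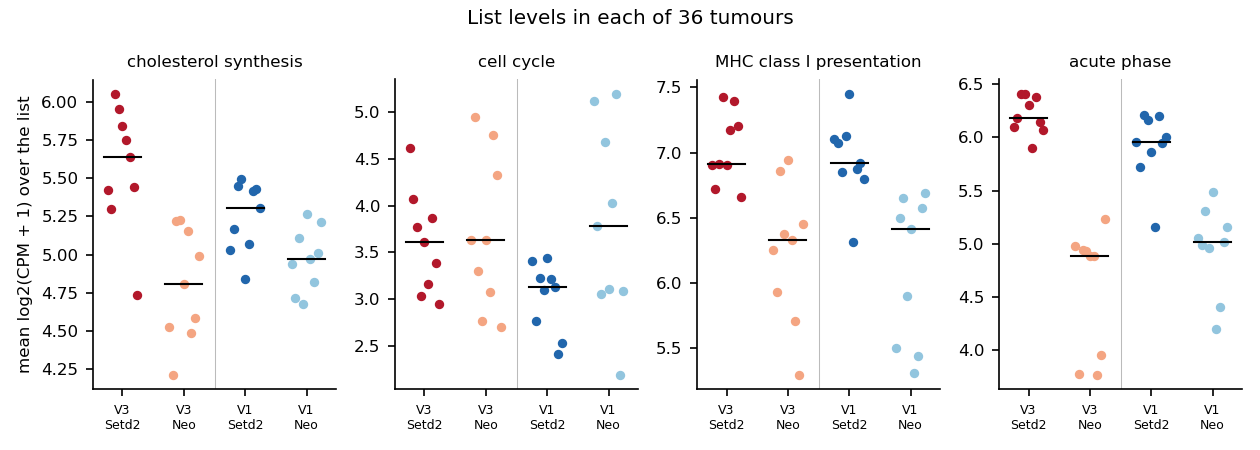
Each point is 1 tumour, 9 per group; the vertical axis is the mean log2(CPM + 1) over the genes of the list named above each panel, and the line is the group median. Setd2 tumours stand mostly above Neo tumours of their variant for cholesterol synthesis, MHC class I and acute-phase genes, and Variant 1 Neo tumours spread from 2.19 to 5.20 for the cell cycle list.

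The enzymes Asns and Phgdh had small unadjusted interaction p-values. Asns, asparagine synthetase and a target of ATF4, had 23, 19.2 and 24.6 CPM in Variant 3 Setd2 and 15.2, 16 and 14.6 CPM in Variant 3 Neo codes. It had 29.6, 39.9 and 28.7 CPM in Variant 1 Setd2 and 58.7, 53.7 and 43.2 CPM in Variant 1 Neo codes. Setd2 codes lay above Neo codes in Variant 3 and below them in Variant 1, although neither change passed (adjusted p = 0.14 and 0.0783, edgeR). The interaction was 1.21 (0.69 to 1.72, unadjusted p = 0.000276, adjusted p = 0.448, edgeR). Phgdh, the first enzyme of serine synthesis, had a fold change of -0.59 in Variant 3 and fell by 1.91 in Variant 1 (adjusted p = 0.0142, edgeR), with an interaction of 1.32 (0.48 to 2.16). Over the 20 genes of the amino acid stress list the median interaction was 0.22, with 15 above 0 and 2 at an unadjusted p under 0.05. Among 25 glycolysis and hypoxia genes, Pfkfb3, which makes the activator of phosphofructokinase, rose in Variant 3. It had 100.5, 116 and 101 CPM in Variant 3 Setd2 and 42.3, 48.1 and 35.1 CPM in Variant 3 Neo codes, and 79.2, 81.8 and 63.4 CPM in Variant 1 Setd2 and 62.9, 47 and 56.1 CPM in Variant 1 Neo codes. The guides lay apart in both variants, with an interaction of 0.91 (0.42 to 1.39, unadjusted p = 0.00158). Ankrd37, a hypoxia-induced gene, rose in both by 2.15 and 1.99, with an interval of -1.01 to 1.34 that was too wide for likeness.

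The resistin-like gene Retnla (chromosome 16, 48842551 to 48844461), which encodes a secreted protein of lung and macrophages, had the largest rise described here, with the higher estimate in Variant 3. It had 7889, 6206 and 8639 CPM in Variant 3 Setd2, against 31.2, 61.8 and 43.6 CPM in Variant 3 Neo codes. It had 3379.6, 7929 and 4134 CPM in Variant 1 Setd2, against 101, 263 and 66.8 CPM in Variant 1 Neo codes. It rose by 7.38 in Variant 3 and 5.16 in Variant 1, an interaction of 2.22 (0.74 to 3.69, unadjusted p = 0.00682, adjusted p = 0.684, edgeR). The Setd2 codes of the variants overlapped each other, while every Variant 3 Neo code lay below every Variant 1 Neo code. Its family member Retnlg, also a neutrophil marker, rose by 4.94 in Variant 3 and stood 2.59 higher in Variant 1. The neutrophil marker list, which holds Retnlg, stood higher in Setd2 in both variants. Of its 10 genes 5 were tested; 1, Retnlg, rose in Variant 3, 0 passed in Variant 1, and Retnlg and Cxcr2, a chemokine receptor, rose on average over the variants. The summed level of the 5 tested genes was 16.5 to 65.8 CPM (median 38.7) in Variant 3 Setd2 and 0 to 5.18 CPM (2.54) in Variant 3 Neo tumours. It was 8.63 to 80.4 CPM (21.5) in Variant 1 Setd2 and 0.63 to 26.4 CPM (2.97) in Variant 1 Neo tumours. Cxcr2 had group means of 9.37, 1.66, 1.15 and 0.227 CPM, and S100a8, a calcium-binding protein of neutrophils, 0.244, 0.1, 1.31 and 0.0953 CPM, in Variant 3 Setd2, Variant 3 Neo, Variant 1 Setd2 and Variant 1 Neo codes. The part of neutrophils or macrophages in the values of Retnla and Retnlg was not tested.

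Genes of alveolar and airway cell types had mostly negative interactions. Of 17 AT1 genes, markers of the flat gas-exchange cell, 15 had interactions below 0, with medians of -0.20 in Variant 3 and 0.13 in Variant 1, and 0 passed in either variant. Over all genes tested, 10669 of 20009 interactions lay above 0. Hopx, a homeodomain cofactor of AT1 cells, had 32.6, 54.6 and 45.6 CPM in Variant 3 Setd2 and 90.5, 211 and 91.5 CPM in Variant 3 Neo codes. It had 108, 96.3 and 77.9 CPM in Variant 1 Setd2 and 102, 113 and 59.3 CPM in Variant 1 Neo codes. The guides lay apart in Variant 3 and overlapped in Variant 1, with an interaction of -1.60 (-2.67 to -0.53). Clic5, a chloride channel family protein, had fold changes of -1.34 and 0.96 and an interaction of -2.30 (-3.80 to -0.80), with 1 Variant 3 Setd2 code, CE454, at 103 CPM and the other 2 at 25.1 and 29.8. Among 20 AT2 genes, Il33, an alarmin cytokine, had 1137, 849 and 849 CPM in Variant 3 Setd2 and 575, 523 and 726 CPM in Variant 3 Neo codes. It had 913, 826 and 495 CPM in Variant 1 Setd2 and 1309, 1133 and 1166 CPM in Variant 1 Neo codes. Setd2 was the higher in Variant 3 and the lower in Variant 1, with an interaction of 1.33 (0.64 to 2.02). The surfactant genes Sftpc and Sftpa1 had interactions of -0.70 (-1.30 to -0.10) and -1.17 (-2.26 to -0.07).

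Ciliated cell genes had a median of 0.84 in Variant 3 and 3.26 in Variant 1 over 17 genes. Of the 17, 0 passed in either variant and 4 rose on average over the variants, against 3.72% of all genes tested. In Variant 1, DESeq2 called 9 of the 17 higher and limma voom 7. Their summed level was 14.1 to 58.5 CPM in Variant 3 Setd2 and 7.39 to 25.5 CPM in Variant 3 Neo tumours. It was 25.7 to 429.8 CPM in Variant 1 Setd2 and 4.4 to 44.6 CPM in Variant 1 Neo tumours. The 2 highest Variant 1 Setd2 tumours, 429.8 and 202 CPM, both belonged to CE479, and without CE479 the median interaction was -0.74 in place of -2.53. Without CE467 it was -3.83, without CE479 tumour 1 -1.50 and without CE467 tumour 1 -1.94, and 2 genes passed in Variant 1 without CE479 tumour 4. In sorted bulk cells, a different share of ciliated cells and a different amount of RNA per cell cannot be told apart. Club and secretory genes had medians of 0.31 and 1.69 over 18 genes. Cyp2f2, a monooxygenase of club cells, rose in both variants, by 3.26 in Variant 3 and 3.63 in Variant 1, with an interval of -1.63 to 0.90. Among 11 gastric genes tested, of 21 listed, 4 fell on average over the variants and 1, Pgc, in each variant. Of all genes tested, 3.63% fell on average, 0.615% in Variant 3 and 0.72% in Variant 1. Pgc, pepsinogen C, had 0.00742, 0.0201 and 0.00481 CPM in Variant 3 Setd2, against 15.2, 2.41 and 22.9 CPM in Variant 3 Neo codes, and 0.225, 0.263 and 0 CPM in Variant 1 Setd2, against 3.44, 34 and 28.7 CPM in Variant 1 Neo codes.

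Single genes with the smallest interaction p were then read for the variant that carried the change. Cfap52 (chromosome 11, 67924806 to 67965651), a protein of motile cilia that overlaps the annotated gene 9130017K11Rik, had 2.63, 3.48 and 2.26 CPM in Variant 3 Setd2, against 20.6, 22.9 and 20.3 CPM in Variant 3 Neo codes. It had 5.9, 10.4 and 6.36 CPM in Variant 1 Setd2, against 5.6, 7.39 and 3.83 CPM in Variant 1 Neo codes, which overlapped. It fell by 2.93 in Variant 3 (adjusted p = 0.00187, edgeR) and had 0.43 in Variant 1, and its interaction was -3.36 (SE 0.42, -4.28 to -2.44, unadjusted p = 4.91e-06, adjusted p = 0.0982, edgeR). The ciliated list, which does not hold Cfap52, had a median of 0.84 in Variant 3. Adora1 (chromosome 1, 134199223 to 134235431; it overlaps Mybph), the adenosine A1 receptor, had 1.58, 2.16 and 3.15 CPM in Variant 3 Setd2, against 56.7, 35.3 and 24.7 CPM in Variant 3 Neo codes. It had 18.9, 18 and 25.6 CPM in Variant 1 Setd2, against 25.4, 30.6 and 56.7 CPM in Variant 1 Neo codes, a small overlap. Its fold changes were -4.08 and -0.85 and its interaction -3.23 (-4.39 to -2.06). Cd83, an immunoglobulin-family surface protein, fell by 3.05 in Variant 3 and had -0.52 in Variant 1. Ros1, a receptor tyrosine kinase related to ALK, fell in both variants, with the larger estimate in Variant 3. It had 17.2, 22.8 and 15.7 CPM in Variant 3 Setd2, against 133, 133 and 124 CPM in Variant 3 Neo codes. It had 63.3, 67.7 and 57.5 CPM in Variant 1 Setd2, against 119.6, 146 and 220.1 CPM in Variant 1 Neo codes. No code overlapped between guides, and the fold changes of -2.81 and -1.36 gave an interaction of -1.44 (-2.08 to -0.80, adjusted p = 0.495, edgeR). Sytl2, a Rab27 effector, and Npw, a neuropeptide, fell by 1.27 and 1.09 in Variant 3 and stood 0.62 and 0.43 higher in Variant 1 without passing.

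**Figure D5:**
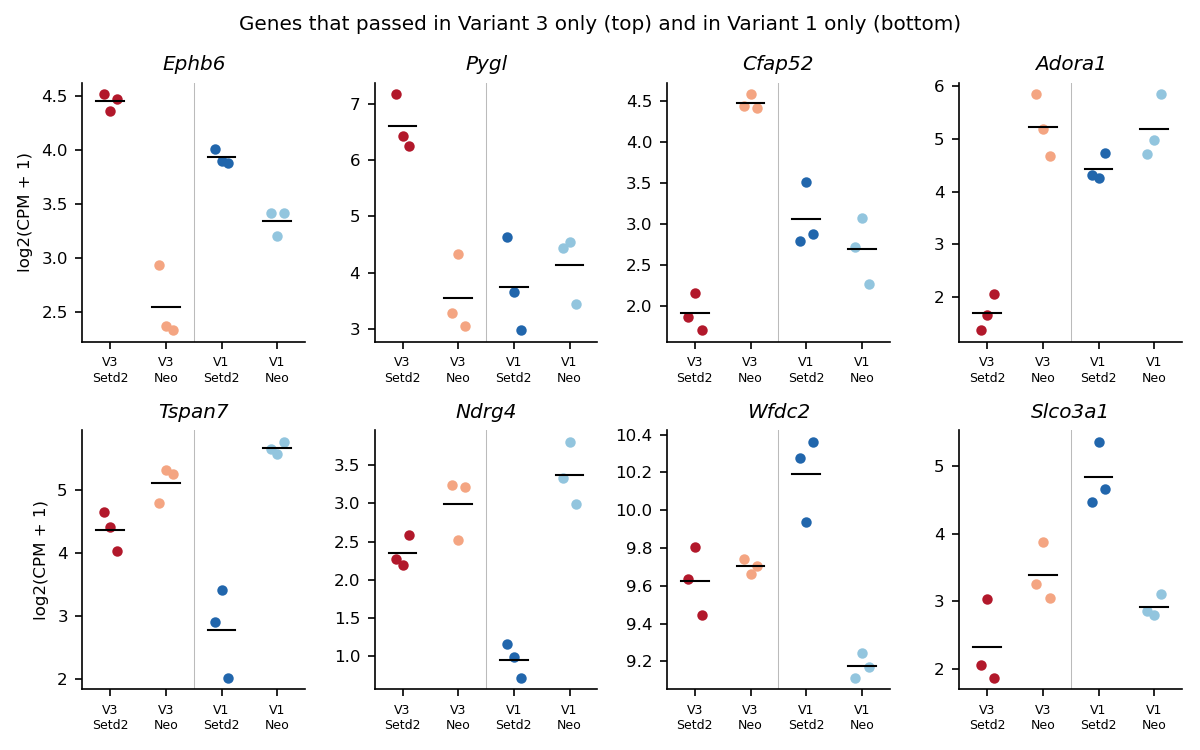
Each panel is a gene and each point a code, 3 per group; the vertical axis is log2(CPM + 1) and the line is the mean. The top row shows genes that passed in Variant 3 only, where the Variant 3 groups are apart, and the bottom row genes that passed in Variant 1 only.

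Genes that passed in Variant 3 and not in Variant 1 include Ephb6, a kinase-dead ephrin receptor, Pygl, liver glycogen phosphorylase, and Mapk13, a p38 kinase, although no interaction passed. Ephb6 had 21.9, 19.7 and 21.2 CPM in Variant 3 Setd2, against 6.64, 4.15 and 4.03 CPM in Variant 3 Neo codes. It had 15.1, 14 and 13.8 CPM in Variant 1 Setd2, against 9.71, 8.22 and 9.67 CPM in Variant 1 Neo codes. The guides lay apart in both variants, and the rise of 2.09 in Variant 3 exceeded the 0.64 of Variant 1 by 1.45 (0.83 to 2.07, unadjusted p = 0.000291, adjusted p = 0.448, edgeR). Pygl had 143, 85.1 and 74.8 CPM in Variant 3 Setd2, against 8.74, 19 and 7.3 CPM in Variant 3 Neo codes, and 23.7, 11.5 and 6.87 CPM in Variant 1 Setd2, against 20.6, 22.4 and 9.87 CPM in Variant 1 Neo codes. Its Variant 3 Setd2 codes stood above every code of the other 3 groups, with an interaction of 3.44 (1.87 to 5.0). Mapk13 rose by 0.60 in Variant 3 and had -0.22 in Variant 1, with the interaction at 0.82 (0.47 to 1.16). Tyro3, a receptor kinase of the TAM family, and Cd164l2 leaned the same way without passing in either variant, with interactions of 1.70 and 1.54.

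Among genes that passed in Variant 1 and not in Variant 3, again without an interaction that passed, Tspan7, a tetraspanin (chromosome X, 10485158 to 10596605), had 24.1, 20.2 and 15.2 CPM in Variant 3 Setd2, against 26.6, 38.7 and 36.9 CPM in Variant 3 Neo codes. It had 6.47, 9.58 and 3.05 CPM in Variant 1 Setd2, against 49.2, 46.5 and 53.2 CPM in Variant 1 Neo codes. The Setd2 codes were lower in both variants, by far more in Variant 1, with fold changes of -0.78 and -2.96 and an interaction of 2.18 (1.16 to 3.20). Single tumours spread more widely than the codes. In Variant 1, Tspan7 had 3.47 to 109 CPM (median 16.9) in Neo tumours and 2.06 to 20 CPM (5.735) in Setd2 tumours. Ndrg4 had fold changes of -0.79 and -3.36, and Mpzl1, a receptor glycoprotein, 0.23 and -1.11. The Variant 1 Neo tumours had 0.343 to 17.8 CPM (median 4.75) of Ndrg4, and the Variant 1 Setd2 tumours 0 to 2.35 (0.995). For Mpzl1 these were 20.9 to 123.3 CPM (34.9) and 18.45 to 46 CPM (29.1), so that the medians were close. Podxl, podocalyxin, had 36.8, 52 and 27.5 CPM in Variant 3 Setd2 and 25.4, 32.8 and 19.8 CPM in Variant 3 Neo codes, which overlapped. It fell to 15.3, 13.6 and 12.5 CPM in Variant 1 Setd2 codes, against 91.8, 41.8 and 40.3 CPM in Variant 1 Neo codes. Single Variant 1 tumours had 5.58 to 29.95 CPM (median 14.1) in Setd2 and 13.6 to 159 CPM (34.1) in Neo. Ogfrl1 had a fold change of -0.13 in Variant 3 and fell by 1.67 in Variant 1. Wfdc2, a secreted protease inhibitor of airway cells, passed in Variant 1 and not in Variant 3. It had 794, 892 and 696 CPM in Variant 3 Setd2 and 857, 809 and 832 CPM in Variant 3 Neo codes, which overlapped, and 1237, 979.7 and 1315 CPM in Variant 1 Setd2, against 553, 606 and 575 CPM in Variant 1 Neo codes. Its interaction was -1.09 (-1.53 to -0.66). Slco3a1, an organic anion transporter, had -1.18 in Variant 3 and rose by 2.12 in Variant 1, and Tcea3, a transcription elongation factor, had -0.09 in Variant 3 and rose by 1.09 in Variant 1. Mlana had an interaction of -1.42 and passed in neither.

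Calls were then followed through the alternative fits. Of 48 genes named by the rule that passed in Variant 3, 18 passed in all 58 alternative fits, among them Sqle, Socs3, Steap4, Fga, Ephb6, Cfap52, Adora1, Cd83 and Ros1. Of 48 that passed in Variant 1, 0 passed in all 58, since the fit with the cell cycle mean as a covariate called 0 genes in that variant, and 3 (Retnla, Steap4 and Cyp2f2) passed in the other 57. The cell cycle list's mean log2(CPM + 1) was 3.15, 3.29 and 2.84 in Variant 1 Setd2 and 4.56, 4.37 and 4.38 in Variant 1 Neo codes. These lay apart, so that fit cannot tell the guide from the cell cycle level in Variant 1. Without CE472 tumour 2, the tumour of highest cell cycle level, Variant 3 had 191 calls in place of 299, and Variant 1 had 17 in place of 284.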

How the data were processed

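RNA of sorted neoplastic lung cells was amplified with the SMART-Seq mRNA kit and sequenced as 150-base read pairs, per the labels' protocols. STAR 2.5.3a, R 4.2 and DESeq2 1.38.3 are named in the submitters' processing notes. Neither the counting tool and its strand setting nor the build and annotation used upstream is given in the sources used here. The authors deposited raw counts per gene for 36 tumours, and total counts per tumour limit the precision. Of 49585 gene IDs, 49326 carried a symbol in GENCODE M21 (GRCm38), which also gave positions.

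Counts were summed over the 3 tumours of a title code and fitted with edgeR 4.0.16 (R 4.3.3, TMM scaling, filterByExpr by group, robust quasi-likelihood fit), with the Benjamini-Hochberg adjustment over 20009 genes and a threshold of 0.05. CPM were scaled by TMM. The standard error was the size of the log2 difference over the square root of F. Fits were tested on simulated counts. Alternatives used limma 3.58.1, DESeq2 1.42.0, other filters and scalings, covariates, and leaving out each code or tumour. Promoters came from RefSeq (GRCm38.p6).

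Genes named were Setd2, the 10 per direction of smallest interaction p, the 15 alike genes of largest average change, the 8 per variant of smallest interaction p among genes called there only, and in each described list the called members and up to 4 of smallest interaction p. Apart from lists and Setd2, they needed a mean of at least 5 CPM. Hmgcs1, H2-T22, Psmb8, Ptprc, S100a8, Cxcr2, Cd14, C1qa, C1qb, C1qc and, in a figure only, Lrg1 were named after their values were seen. Some genes that the rule names are not reported here. The members and the gene lists were chosen with earlier results of these data known.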

Additional observations from a re-analysis of the deposited data

Results flagged for a closer look

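In 152 groups of 9 tumours, the highest or lowest tumour was compared with the spread of its group by Dixon's ratio, for which chance flags about 1 group in 20. The 15 groups below held a tumour that lay apart, and no explanation was weighed. CE429 tumour 2 of Variant 3 Neo had the most counts, 137.2 M (mega), and stood high in its group for the interferon list, at a mean log2(CPM + 1) of 3.921. The other values are on the same scale, log2(CPM + 1). CE479 tumour 2 of Variant 1 Setd2 stood apart for the resistin-like list at 7.445, the interleukin-6 and STAT3 list at 6.158, the glycolysis and hypoxia list at 7.212 and Npw at 2.665. CE479 tumour 4, of the same code, stood apart for the acute-phase list at 5.157 and Asns at 5.944. CE454 tumour 3 of Variant 3 Setd2 stood apart for the ciliated list at 1.743, and it was also 1 of the 4 tumours with Col1a1 above 10 CPM, at 17.9 CPM. Single genes that stood apart were Mapk13 at 7.767 in CE468 tumour 4 and Tcea3 at 3.564 in CE467 tumour 1, both of Variant 1 Neo, and Sytl2 at 5.689 in CE483 tumour 3 of Variant 1 Setd2. In Variant 3 Neo they were Asns at 5.153 in CE429 tumour 1, Mpzl1 at 4.769 in CE433 tumour 2 and Cd83 at 1.528 in CE433 tumour 1.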

How the results depend on the processing

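No paired analysis was possible because no title code is shared between groups. The interaction called 0 genes here, 114 with DESeq2, 2 with limma voom on tumours, and 0 in the other settings. Variant 3 had 299 calls here, 1330 with DESeq2, 1058 with voom, 563 with limma on the mean of a code's tumours, 188 with sex as a covariate and 191 with the cell cycle mean as a covariate. Variant 1 had 284 calls here, 1500 with DESeq2, 454 with the filter at 1 CPM in 3 codes, 147 with limma on the median of a code's tumours, 102 with sex and 0 with the cell cycle mean. The average had 1471 calls here, 2908 with DESeq2, 2237 with voom and 13 with the cell cycle mean. Genes alike within 2-fold numbered 633 here, 1212 with DESeq2, 991 with voom, 294 with the median of tumours and 1 with the cell cycle mean. The cause of these shifts was not tested, and in Variant 1 the cell cycle mean and the guide cannot be told apart.

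Leaving out each code gave 0 calls for the interaction throughout, 78 to 304 in Variant 3, 16 to 360 in Variant 1, 728 to 1501 for the average and 237 to 706 alike. Leaving out each tumour gave 0 to 1, 176 to 321, 17 to 495, 846 to 1681 and 315 to 732. Variant 3 fell under 200 calls without CE450 (101), CE428 (81), CE433 (78), CE475 (195), CE428 tumour 2 (176), CE468 tumour 1 (194) or CE472 tumour 2 (191). Variant 1 fell under 100 calls without CE475 (19), CE483 (16), CE468 (60), CE472 (71), CE433 tumour 3 (67), CE467 tumour 1 (76), CE468 tumour 1 (51) or CE472 tumour 2 (17). It had 113 without CE467, 175 without CE428 tumour 1, 148 without CE479 tumour 1, 495 without CE479 tumour 4 and 445 without CE472 tumour 6. With the cell cycle mean as a covariate, the interaction of Aurkb (-0.48) and the average of Cdk1 (0.046) turned sign. Both genes belong to the list that the mean was taken over, so that fit removes part of their own change. Of 78 genes with an average value, 6 kept an average call in every alternative, where the fit with the cell cycle mean called 13 genes in all. The fit without 4 tumours of Col1a1 over 10 CPM was chosen after seeing the data. Genes of few counts have wide intervals, so that likeness could not be read for them.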

Other observations

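Further lists gave few calls. Of 19 cytochrome P450 and detoxification genes, 2 passed in Variant 3, 1 higher and 1 lower, and 1 rose in Variant 1. Their median was -0.34 in Variant 3 and 0.83 in Variant 1, with 3 interactions below 0 at an unadjusted p under 0.05. The 13 genes of the mitochondrial genome had medians of 0.05 in Variant 3 and -0.51 in Variant 1, and 0 passed in either variant. Single codes stood apart in their summed level. It was 13916, 13678 and, in CE456, 32167 CPM in Variant 3 Setd2, against 21565, 19130 and 18595 CPM in Variant 3 Neo codes. In Variant 1 it was 12022, 13220 and 12127 CPM in Setd2, against 12697, 23577 (CE468) and 13361 CPM in Neo codes. Of 24 Polycomb genes 0 passed in either variant, 1 rose and 3 fell on average over the variants, and 3 were alike. Of all genes tested, 3.72% rose and 3.63% fell on average, and 3.16% were alike. Of 21 genes of histone H3 lysine 36 methylation, the mark that Setd2 writes, 1 fell in Variant 1 and 0 passed in Variant 3, with a median interaction of 0.08.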
